A study of Bos taurus with 20 samples.

Results

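MYF5, MYOG and MYF6 encode the myogenic factor 5, myogenin and the factor also called MRF4. They were taken as the rows of the deposited table whose platform annotation carries these symbols, 1 row for each gene, which makes 3 of 11329 named genes. The probes are A_73_119356 for MYF5 (Entrez gene 281335), A_73_118948 for MYOG (Entrez gene 281343) and A_73_112243 for MYF6 (Entrez gene 281336). None of the 3 genes had a further row, so no other probe of the same gene checks these values.

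The 3 genes belong to the myogenic regulatory factors, basic helix-loop-helix proteins that bind E-box DNA as partners of the widely expressed E proteins. MYF5, with its relative MYOD1, commits mesodermal precursors to the muscle lineage and is kept in precursor and satellite cells. Myogenin acts later, when myoblasts leave the cell cycle and fuse, and MYF6 is in mice the family member that predominates in mature fibres. Inhibitors such as the ID proteins, TWIST1 and MDFI act by taking up the factors or their E protein partners.

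The samples were total RNA of bovine longissimus dorsi (LD), the long back muscle, from a Piedmontese by Hereford cross and from a cross of Wagyu by Hereford. The Piedmontese is known as a heavily muscled breed and the Wagyu for marbled meat, and both crosses share the Hereford side. Fetal samples were from 60, 135, 195 and 280 days of gestation and postnatal samples from 3, 7, 12, 20, 25 and 30 months of age. The table has 1 column for each of the 20 combinations, made from 3 animals when fetal or 4 when postnatal, with no treatment named. Neither the animals' sex nor any repeat sampling of the same animal is given in the sources used here.

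Values are the deposited levels, read as log2 units, and differences are given in those units and not as folds. Since a cross at an age has 1 column, the 2 crosses served as the 2 samples of each age, and an SD within a single cross and age cannot be given. Column medians lay between 5.88 and 7.36, so the columns had not been set to a common level. The 36 two-colour arrays each held both crosses at 1 age. The fetal ages occupied 3 slides, 3 to 20 months another 4, and 25 and 30 months the last 2, and 0 slides were shared between these sets. Fetal steps and differences between crosses therefore fall within slides, whereas across birth the slide and the age cannot be told apart. Of the muscle fibre markers fixed for the tissue, 4 of 5 were measured (ACTA1 and DES among them), and their mean level was 14.05 to 18.28 at the first 3 fetal ages and at least 19.42 in all later columns. The columns of 135 days stood apart in adipocyte markers, and the Piedmontese one also in ACTA1. Several results that rest on them are therefore given without them too.

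All 3 factors changed with age, and they changed most before birth. MYF5 and MYOG were high at the first 3 fetal ages and lowest at 280 days, while MYF6 was lowest at 60 days and highest at 280 days. In limma's F test over the 10 ages, with Benjamini-Hochberg adjustment over all 21475 rows, F was 48.6 for MYF5 (adjusted p = 2.79e-09), 29.4 for MYOG (adjusted p = 7.8e-08) and 35.1 for MYF6 (adjusted p = 2.43e-08). Of all rows, 87.4% passed the same test at the threshold of 0.05, so passing it does not set the 3 genes apart. Over the 4 fetal ages F was 73.1, 75.0 and 70.4 in the same order, with 66.9% of rows passing.

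**Figure D1:**
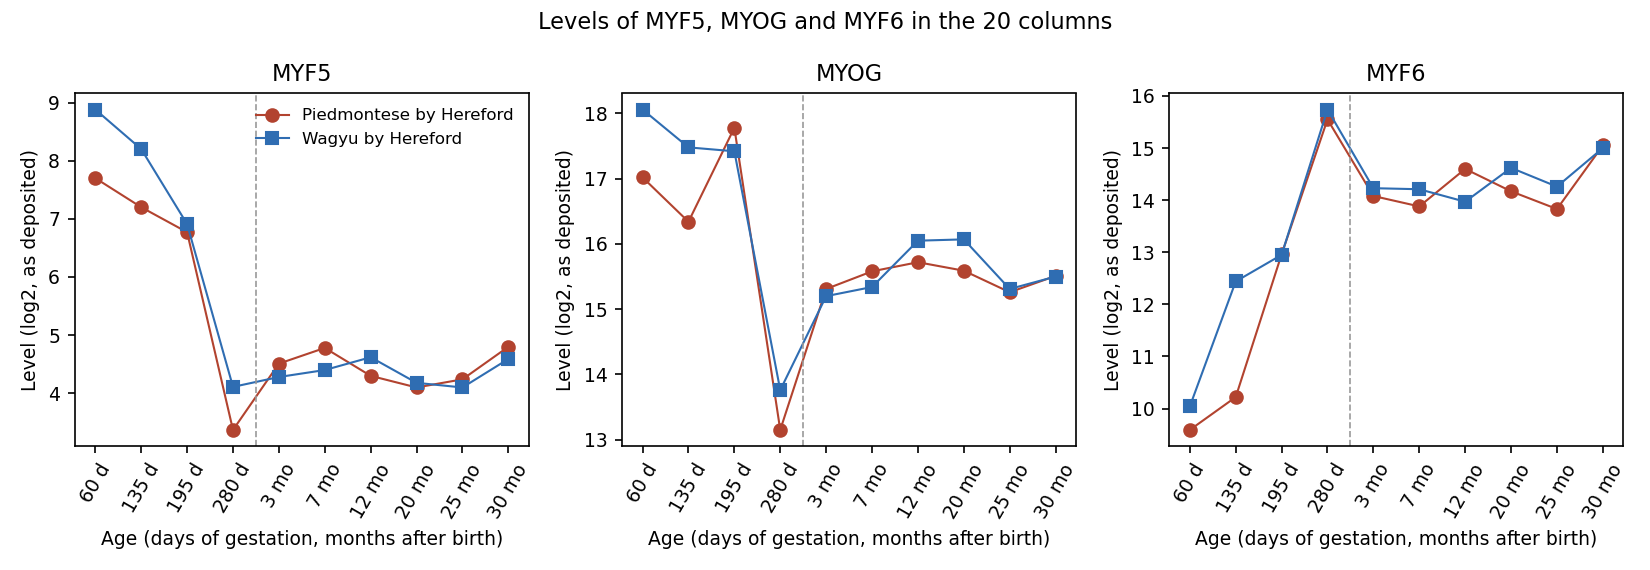
Deposited level (log2) of each factor at the 10 ages, in 1 panel per gene with its own vertical scale; circles are the Piedmontese cross, squares the Wagyu cross, and the dashed line marks birth. MYF5 and MYOG are lowest at 280 days in both crosses and MYF6 is highest there.

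MYF5, the early commitment factor, stood at 7.70, 7.20, 6.77 and 3.37 at 60, 135, 195 and 280 days in the Piedmontese cross. In the Wagyu cross it stood at 8.88, 8.20, 6.91 and 4.11. Both crosses were lower at each later fetal age, and all 6 columns of the first 3 ages, from 6.77 to 8.88, lay above both columns of 280 days. From 60 to 280 days MYF5 fell by 4.54 ± 0.33 (SE, 2 columns per age, adjusted p = 2.65e-09 in limma), by 4.32 in the Piedmontese and 4.76 in the Wagyu columns. This comparison was passed by 61% of all rows, 18.6% higher and 42.4% lower, with a median change of -0.34, and 3.79% of rows had a change below that of MYF5.

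The largest step of MYF5 was the last fetal one. Between 195 and 280 days it fell by 3.09 ± 0.33 (adjusted p = 6.97e-07; 47.8% of rows passed, 14.2% higher and 33.6% lower), whereas the step from 60 to 135 days was -0.59 ± 0.33 (adjusted p = 0.253, 19.5% called) and that from 135 to 195 days -0.86 ± 0.33 (adjusted p = 0.0946, 15% called). In bulk RNA, fewer cells of a type and less RNA per cell cannot be told apart, for this gene and the others. MYF5 was also near the low end of the table at 280 days: 3.7% of rows in the Piedmontese column and 17.5% in the Wagyu column had a lower value, against 49.2% and 50.6% at 195 days. The table carries no detection call, so whether the probe was above background at 280 days was not tested.

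After birth MYF5 stayed low. It read 4.51, 4.78, 4.30, 4.10, 4.24 and 4.80 at 3, 7, 12, 20, 25 and 30 months in the Piedmontese cross and 4.28, 4.40, 4.62, 4.18, 4.10 and 4.59 in the Wagyu cross. These 12 values, from 4.10 to 4.80, lay below every value of the first 3 fetal ages. They were also low in the table. The share of rows below MYF5 ran from 12.4% (Wagyu, 25 months) to 34.5% (Piedmontese, 7 months). Whether the probe was above background after birth was not tested either, and all postnatal results of MYF5 carry this limit. The mean over the postnatal ages was lower than over the fetal ages by a change of -2.23 ± 0.15 (adjusted p = 4.5e-10, 73.5% of rows called), and by -3.20 ± 0.17 when 280 days was left out of the fetal mean (75.5% called). Ordered by mean level, the ages ran from 60 days (8.29) through 135 days (7.70), 195 days (6.84) and 30 months (4.69) down to 20 months (4.14) and 280 days (3.74). The only neighbours in that order that differed past the threshold were 195 days and 30 months, 2.14 apart (adjusted p = 4.2e-05, 52.6% of rows called). The order was set by the same means and only neighbours were compared, so the other ages are not shown to be alike.

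Myogenin, the differentiation factor, followed another fetal course. In the Piedmontese cross it stood at 17.02, 16.34, 17.78 and 13.15 at 60, 135, 195 and 280 days, and in the Wagyu cross at 18.06, 17.48, 17.42 and 13.76. The 6 columns of the first 3 ages lay between 16.34 and 18.06, without a common order of the ages in the crosses, and both columns at 280 days lay well below them. From 195 to 280 days MYOG fell by 4.14 ± 0.32 (adjusted p = 1.49e-08), by 4.63 in the Piedmontese and 3.66 in the Wagyu columns, and 1.51% of all rows had a change below it. From 60 to 280 days it fell by 4.08 ± 0.32 (adjusted p = 6.39e-09).

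The earlier steps of MYOG were small beside this one. They were -0.62 ± 0.32 from 60 to 135 days (adjusted p = 0.201) and 0.69 ± 0.32 from 135 to 195 days (adjusted p = 0.167). The second passed without the Wagyu column of 135 days, at 1.16 (adjusted p = 0.0364).

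MYOG then rose across birth. At 3, 7, 12, 20, 25 and 30 months it read 15.31, 15.58, 15.72, 15.59, 15.26 and 15.51 in the Piedmontese cross, and 15.20, 15.34, 16.05, 16.07, 15.31 and 15.50 in the Wagyu cross. All 12 postnatal values, from 15.20 to 16.07, lay above the columns of 280 days and below the 6 earlier fetal ones. The rise from 280 days to 3 months was 1.80 ± 0.32 (adjusted p = 0.000696), 2.15 in the Piedmontese and 1.44 in the Wagyu columns. For this step 28.6% of rows passed, 13.8% higher and 14.8% lower, and 2.17% of rows rose more than MYOG. Neighbours in its order of ages differed past the threshold at 2 places. These were between 135 days and 12 months (1.03, adjusted p = 0.011, 58% of rows called) and between 3 months and 280 days. As with MYF5, the order came from the same means, so neighbours that did not pass are not shown to be alike.

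The postnatal mean of MYOG was lower than the fetal mean by a change of -0.84 ± 0.15 (adjusted p = 5.74e-05), although the fetal mean holds the low columns of 280 days. That difference was -0.22 (adjusted p = 0.206) when columns were centred on their medians. Without 280 days in the fetal mean it was -1.81 ± 0.16.

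MYF6, the factor of mature fibres, ran the other way. It stood at 9.59, 10.22, 12.96 and 15.55 at 60, 135, 195 and 280 days in the Piedmontese cross and at 10.04, 12.44, 12.95 and 15.74 in the Wagyu cross. Both crosses were higher at each later fetal age, the Wagyu values at 135 and 195 days lying 0.51 apart. From 60 to 280 days MYF6 rose by 5.83 ± 0.42 (adjusted p = 2.03e-09), by 5.97 in the Piedmontese and 5.70 in the Wagyu columns. Only 0.526% of all rows rose more, which placed MYF6 at rank 114 of 21475.

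Each fetal step of MYF6 passed, but the first and the second rested on single columns. MYF6 rose by 1.52 ± 0.42 from 60 to 135 days (adjusted p = 0.0168), 0.63 in the Piedmontese and 2.40 in the Wagyu columns, and without the Wagyu column of 135 days the step was 0.48 (adjusted p = 0.36). It rose by 1.63 ± 0.42 from 135 to 195 days (adjusted p = 0.015), 2.74 in the Piedmontese and 0.51 in the Wagyu columns, and without the Piedmontese column of 135 days the step was 0.59 (adjusted p = 0.318). The last step, 2.69 ± 0.42 (adjusted p = 4.19e-05), was alike in the crosses at 2.59 and 2.79 and passed under every alternative run.

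MYF6 fell across birth and stayed above its early fetal levels. The Piedmontese values at 3, 7, 12, 20, 25 and 30 months were 14.08, 13.88, 14.60, 14.17, 13.83 and 15.05, and the Wagyu values 14.23, 14.21, 13.97, 14.62, 14.26 and 15.00. The postnatal columns, from 13.83 to 15.05, lay between the highest value of the first 3 fetal ages, 12.96, and the lower of the columns at 280 days, 15.55. From 280 days to 3 months MYF6 fell by 1.49 ± 0.42 (adjusted p = 0.0145), by 1.47 and 1.51 in the crosses. The call was lost without the Wagyu column of 3 months (-1.38, adjusted p = 0.108), without the Piedmontese column of 280 days (-1.40, adjusted p = 0.0813) and after quantile normalisation (-1.34, adjusted p = 0.0607). Over the postnatal ages its mean was higher than over the fetal ages by 1.89 ± 0.19 (adjusted p = 8.62e-08).

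In the order of mean levels of MYF6, 280 days (15.65) came first, then 30 months (15.03), and 195 days (12.96), 135 days (11.33) and 60 days (9.81) came last. Neighbours that differed past the threshold were 7 months and 195 days (1.09, adjusted p = 0.037, 54.8% of rows called), 195 and 135 days, and 135 and 60 days. Among 280 days and the 6 postnatal ages no neighbours in this order differed past the threshold. Only neighbours in an order set by the same means were compared, so this does not show that these ages were alike. The change from 280 days to the youngest postnatal age, which are not neighbours in this order, was -1.49 (adjusted p = 0.0145 in limma). That call was lost under some alternatives, as given above.

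**Figure D2:**
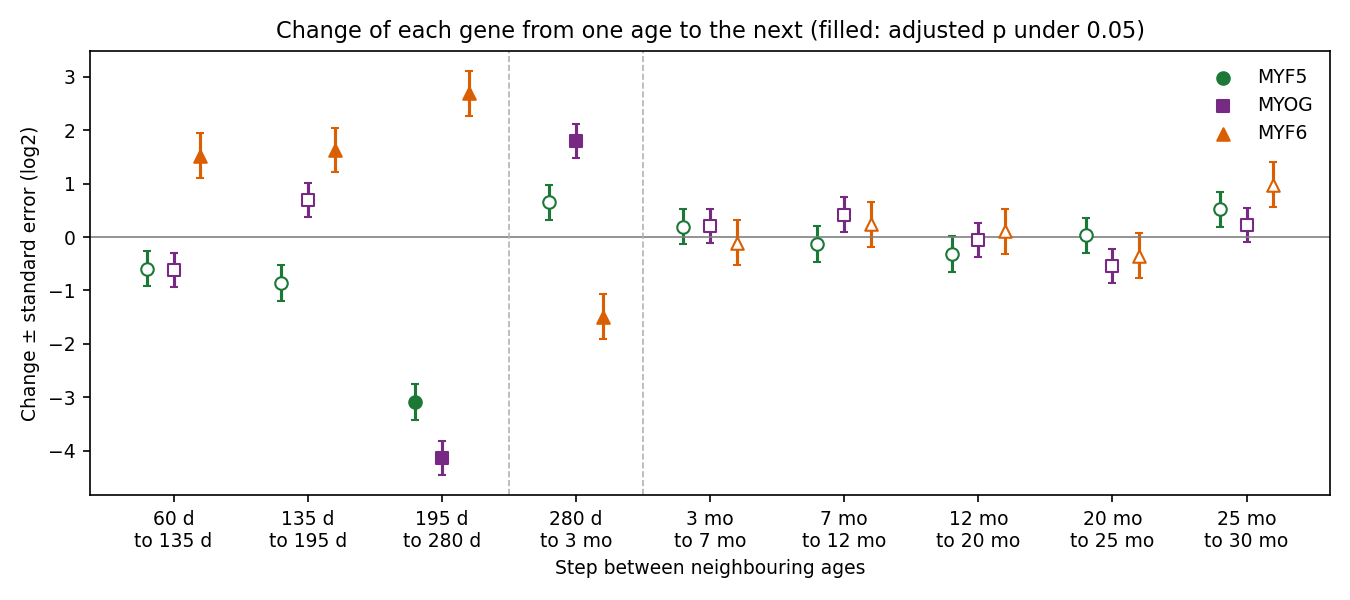
Change of each factor between neighbouring ages (log2, mean of 2 columns per age), with bars of 1 standard error from the limma fit; filled symbols passed an adjusted p of 0.05 and the dashed lines enclose the step across birth. The step from 195 to 280 days holds the largest change of all 3 genes, and no postnatal step is filled.

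Set against each other, the genes differed in how much they changed. The prenatal change of MYF6 exceeded that of MYF5 by 10.38 ± 0.40 (adjusted p = 1.08e-12) and that of MYOG by 9.91 ± 0.36 (adjusted p = 5.43e-13). MYOG and MYF5 differed by 0.46 ± 0.22 in the same comparison (adjusted p = 0.0762), a difference whose sign turned after quantile normalisation (-0.65, adjusted p = 0.0272). Across birth MYOG changed by 1.15 ± 0.22 more than MYF5 (adjusted p = 0.00111) and the change of MYF6 minus that of MYOG was -3.29 ± 0.36 (adjusted p = 9.21e-06). The value of MYF5 itself across birth was 0.65 ± 0.33 (adjusted p = 0.154), 1.14 in the Piedmontese and 0.16 in the Wagyu columns.

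As a description over the 20 columns, which share slides within the fetal ages, within 3 to 20 months and within 25 to 30 months, Pearson's r between MYF5 and MYOG was 0.86. It was 0.94 over the 8 fetal columns and 0.11 over the 12 postnatal ones. MYF6 correlated with MYF5 at -0.88 and with MYOG at -0.74 over all columns, and at 0.19 and 0.16 over the postnatal columns.

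MYOD1, the other commitment factor of the family, was measured by probe A_73_113547. It read 15.56, 14.18, 16.56 and 11.84 at the 4 fetal ages in the Piedmontese cross and 16.29, 16.36, 16.26 and 13.93 in the Wagyu cross. As with MYOG, the columns of 280 days were the lowest fetal ones in both crosses. MYOD1 fell by 3.53 ± 0.57 from 195 to 280 days (adjusted p = 5.96e-05) and rose by 1.81 ± 0.57 to 3 months (adjusted p = 0.0262). Its postnatal values ran from 14.28 to 16.50, and r with MYOG was 0.78 over all columns and 0.76 over the postnatal ones.

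From 3 to 30 months no change of the 3 factors passed, and none passed in any of the 5 postnatal steps, in which 1.27%, 1.66%, 2.29%, 8.97% and 2.81% of rows did. The difference of 30 minus 3 months was 0.30 for MYF5 (95% interval -0.40 to 1.01, adjusted p = 0.537), 0.25 for MYOG (-0.43 to 0.93, adjusted p = 0.605) and 0.87 for MYF6 (-0.01 to 1.76, adjusted p = 0.14). Of all rows 21.9% passed, 18.4% higher and 3.49% lower, and the median over all rows was 0.31. The F test over the 6 postnatal ages gave 0.871, 1.37 and 1.55 (adjusted p = 0.595, 0.376 and 0.318), with 33% of rows passing. MYF6 is the exception to a plain reading: both of its columns at 30 months, 15.05 and 15.00, lay above its other 10 postnatal columns. Its change from 3 to 30 months passed when the postnatal columns were fitted alone (0.87, adjusted p = 0.0123) and without either column of 135 days (adjusted p = 0.0196). The columns of 3 and 30 months were on different slides. Within the slides of 3 to 20 months the difference of MYF6 between those ages was 0.24 ± 0.42 (adjusted p = 0.827, 4.87% of rows called).

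The design also asks whether the crosses differ. No difference in the 3 factors passed the adjusted threshold. Averaged over the 10 ages, Piedmontese minus Wagyu was -0.25 ± 0.15 for MYF5 (95% interval -0.57 to 0.07, adjusted p = 0.746), -0.29 ± 0.14 for MYOG (-0.60 to 0.01, adjusted p = 0.634) and -0.35 ± 0.19 for MYF6 (-0.75 to 0.04, adjusted p = 0.686). In this comparison 0.279% of rows passed. The exact two-sided sign-flip test over the 10 ages gave p = 0.197, 0.115 and 0.133, where the smallest p it allows is 0.00195. The Wagyu column was the higher at 6, 6 and 7 of the 10 ages.

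Taken age by age before birth, the differences for MYF5 were -1.18, -1.0, -0.14 and -0.74 at 60, 135, 195 and 280 days, so the Wagyu column was the higher at 4 of 4 fetal ages. For MYOG they were -1.04, -1.14, 0.36 and -0.61, and for MYF6 -0.46, -2.22, 0.01 and -0.19, each with the Wagyu column higher at 3 of 4 ages. At 135 days the columns also differed in tissue markers: the mean of the muscle fibre markers was 14.55 in the Piedmontese and 16.94 in the Wagyu column, ACTA1 was 16.52 and 20.04, the mean of the adipocyte markers 9.85 and 8.72, and MYOD1 differed by -2.18. At 60 days the muscle fibre mean was 14.05 in the Piedmontese and 15.37 in the Wagyu column. ACTA1 was 18.13 and 19.67 there. The part of these markers in the differences of the 3 factors at 60 and 135 days was not tested. Without 135 days the mean cross difference over the other ages was -0.17 for MYF5 (adjusted p = 0.743), -0.20 for MYOG (adjusted p = 0.637) and -0.15 for MYF6 (adjusted p = 0.71). The mean fetal difference of MYF5 was -0.76 ± 0.18 (95% interval -1.14 to -0.39, unadjusted p = 0.000525 in limma, adjusted p = 0.156, 0.0373% of rows called). Those of MYOG and MYF6 were -0.61 (adjusted p = 0.395) and -0.72 (adjusted p = 0.491). These mean fetal differences are given with 135 days included only. The mean postnatal differences were 0.09, -0.08 and -0.11, with 0.293% of rows called.

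Whether the difference itself changed from fetal to postnatal ages was tested on the 10 differences. The value for MYF5 was -0.86 ± 0.23 (adjusted p = 0.373), for MYOG -0.52 (adjusted p = 0.939) and for MYF6 -0.60 (adjusted p = 1), with 0.0186% of rows called. Without 135 days the values were -0.78 for MYF5 (adjusted p = 0.461), -0.34 for MYOG (adjusted p = 0.768) and -0.10 for MYF6 (adjusted p = 0.929). At single fetal ages the dyes were unbalanced. Of each 3 Piedmontese samples, Cy3 labelled 2 at 60 days and at 280 days. Cy3 labelled only 1 at 135 days and at 195 days, and Cy5 labelled the others. The part of the dyes in these single-age differences was not tested.

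**Figure D3:**
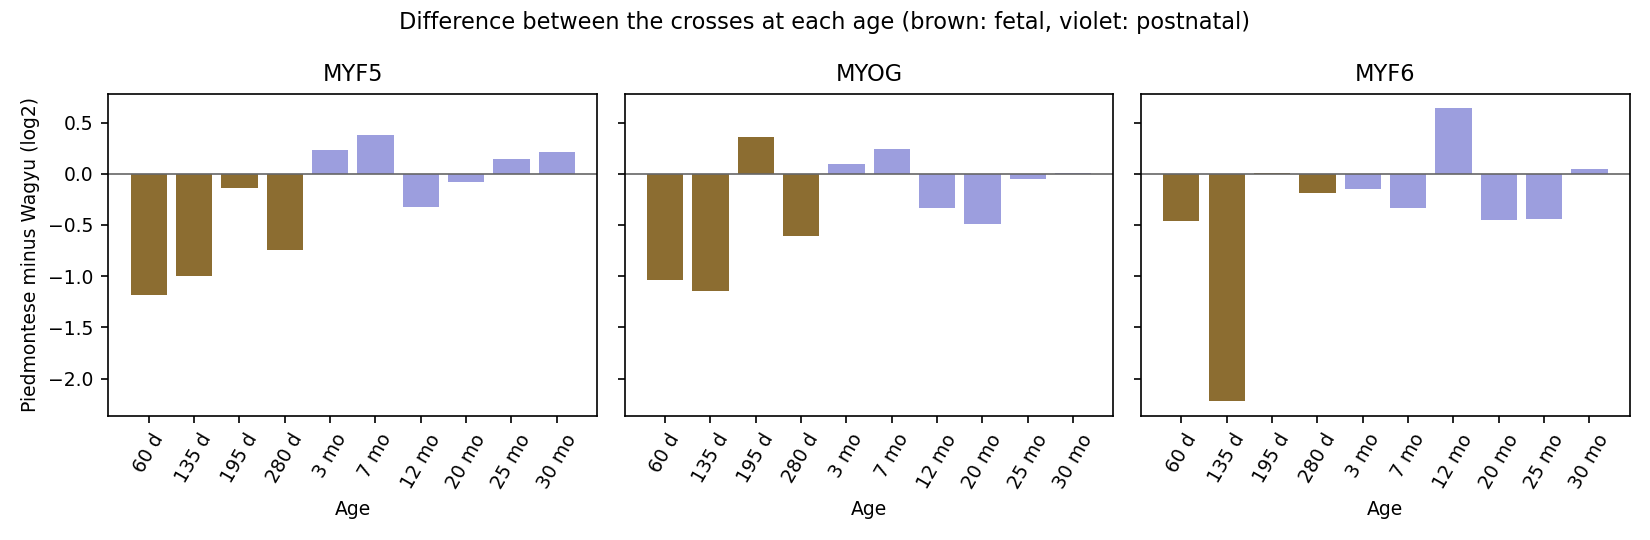
Piedmontese minus Wagyu (log2) for each factor at the 10 ages, 1 bar per age from 1 column of each cross; brown bars are fetal and violet bars postnatal ages. All 4 fetal bars of MYF5 lie below 0, and the longest bar is that of MYF6 at 135 days, -2.22.

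The genes closest to each factor in pattern were ranked by Pearson's r over the 20 columns, with 1 row per gene. For MYF5 the 8 highest were CTHRC1 (0.984), EXT1 (0.984), THPO, ARHGAP32, SYTL2, EPB41L3, SPATS2L and MYOF (0.980). EXT1 is an enzyme of heparan sulphate synthesis and MYOF is myoferlin, a membrane protein of fusing myoblasts. The 4 lowest were LRRC2 (-0.968), RNF34, SMYD2 and AIFM1 (-0.955). Over the 8 fetal columns r was 0.972 to 0.989 for the 8 highest. Over the 12 postnatal columns it was 0.126 for CTHRC1, 0.202 for MYOF, 0.409 to 0.615 for SYTL2, EPB41L3, THPO, ARHGAP32 and SPATS2L, and 0.869 for EXT1.

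For MYOG the 8 highest were PLS3 (0.943), SHROOM3 (0.942), ANK2, IFTAP, SPSB4, GCSH, PRCP and PRMT2 (0.923). Their r was 0.943 (PRMT2) to 0.981 (IFTAP) over the fetal columns. Over the postnatal columns it was 0.771 for GCSH and 0.095 (SPSB4) to 0.243 (SHROOM3) for the others. For SHROOM3, an actin-binding regulator of cell shape, the difference was -6.92 from 60 to 280 days and 3.89 across birth, against -4.08 and 1.80 for MYOG. The 4 lowest were the metallothionein MT2A (-0.912), MID1IP1, DDX54 and ABCC1 (-0.891). The differences of MT2A were 9.36 and -2.86 in the same comparisons.

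For MYF6 the 8 highest were TCAP, DES and TRIM54 (0.968 each), C18H19orf47, PLCD4, FGGY, YBX2 and ART3 (0.954). Their r was 0.960 (PLCD4) to 0.995 (TRIM54) over the fetal columns and 0.073 (YBX2) to 0.714 (TRIM54) over the postnatal ones. TCAP caps titin at the Z-disc, DES encodes the intermediate filament desmin and TRIM54 a ubiquitin ligase of the sarcomere. Their differences from 60 to 280 days were 9.44, 4.07 and 6.60. The 4 lowest were KCNK2, DNM3, PLK4 and CNN2, from -0.965 to -0.957. Ranking by Spearman's rho instead kept 1 of the 8 most alike genes for MYF5 and 0 for MYOG and for MYF6. The fetal columns alone kept 1 for MYF5, 0 for MYOG and 2 for MYF6. The postnatal columns alone kept 0 for each, so the names depend on the measure and on the columns.

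MYF6 and MYF5 are neighbouring genes on chromosome 5 in the RefSeq annotation of ARS-UCD2.0, and they changed in opposite directions before birth. On the outer side of MYF6 lies PTPRQ, a receptor phosphatase, which fell by 1.46 from 60 to 280 days (adjusted p = 0.000143). Its fetal levels were low in the table, 3.99 to 5.76 against column lower quartiles of 3.99 to 4.87. Changes of the neighbours are given for the values as deposited only. Beyond MYF5 lies LIN7A, a scaffold protein, which fell by 1.89 (adjusted p = 5.41e-06). MYOG lies on chromosome 16, where the nearest measured coding genes are TMEM183A and the adenosine receptor gene ADORA1. Their differences over the same ages were -0.54 (adjusted p = 0.0505) and 0.77 (adjusted p = 0.0583).

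Other genes of the pathway were followed through lists, given as counts and medians. Of all rows, 61% passed from 60 to 280 days (18.6% higher, 42.4% lower, median -0.34), 47.8% in the last fetal step (14.2% higher, 33.6% lower, median -0.16) and 28.6% across birth (13.8% higher, 14.8% lower, median -0.14). Each list's counts stand against these shares. Among 13 measured E proteins and inhibitors of basic helix-loop-helix factors, 1 rose and 10 fell from 60 to 280 days, and the list's median change was -2.88. MDFI, which binds and holds back the myogenic factors, fell by 7.22 (adjusted p = 2.29e-12), and TWIST1, a mesenchymal repressor of myogenesis, fell by 6.64 (adjusted p = 1e-11). The E protein gene TCF3, a dimer partner of the factors, fell by 2.88. BHLHE40, a transcriptional repressor, rose by 1.95 (adjusted p = 6.69e-05). Between 195 and 280 days 0 of the 13 rose and 11 fell, BHLHE40 among them at -2.51. The list's median stayed below 0 in both comparisons after quantile normalisation and after centring.

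Across birth 5 of these 13 genes rose and 0 fell, with a list median of 0.10. HEYL, a Notch target, rose by 2.36 (adjusted p = 2.41e-05), BHLHE40 rose by 2.13 (adjusted p = 0.000232), ID1 rose by 1.97 and ID3 by 1.49. These are the ages at which MYOG and MYOD1 rose too. After quantile normalisation the counts were 4 higher and 1 lower.

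Of 14 measured upstream regulators of muscle precursors, MYOD1 included, 2 rose and 9 fell before birth, with a median of -1.03. The balance depended on the scaling, with 4 higher and 4 lower (median -0.12) after quantile normalisation and 6 higher and 3 lower (median 0.20) after centring. MEOX2, a homeobox factor of the somite and limb muscle, fell by 3.78 (adjusted p = 1.12e-09). LBX1, a factor of migrating limb muscle precursors, rose by 2.17 (adjusted p = 6.37e-06), and NFIX, which marks the fetal programme in mice, rose by 1.14. Across birth 4 rose, among them MYOD1 and BARX2 (1.20), and 3 fell, among them SIX5 (-1.20) and PITX3 (-0.90), but the counts were 2 higher and 5 lower after quantile normalisation and 3 higher and 5 lower after centring. PAX3 and PAX7 were not analysed here.

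Of 10 measured MEF2 factors and muscle co-regulators, partners of the myogenic factors at their target genes, 5 rose and 2 fell before birth (median 0.76; 7 and 0 after quantile normalisation, 8 and 1 after centring). SMARCD3, a chromatin remodelling subunit that MYOD1 recruits, rose by 2.48 (adjusted p = 1.27e-07), and HDAC5, a repressor of MEF2, rose by 2.31. MEF2B fell by 1.74 and TEAD3 by 0.86. CDKN1A fell by 4.30 across birth (adjusted p = 5.81e-06) after a change of 3.83 in the last fetal step. In that step 5 of the 10 rose and 2 fell. Across birth 2 rose, SMYD1 (1.18) and MEF2B (1.08), and 3 fell, SMARCD3 (-0.79) among them.

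Of 15 measured satellite cell genes, 3 rose and 9 fell before birth (median -2.23), and 1 rose and 13 fell in the last fetal step (median -2.17). After centring 6 rose and 9 fell before birth (median -1.0), and 2 rose and 12 fell in the last fetal step. MEGF10, a receptor of satellite cells, fell by 5.51 (adjusted p = 7.27e-10) and NCAM1, an adhesion molecule, fell by 5.45 (adjusted p = 6.82e-11). SDC4, a heparan sulphate proteoglycan, rose by 2.62 and CHRDL2, a bone morphogenetic protein antagonist, by 1.48. Across birth 2 rose, MEGF10 (1.62) and CXCR4 (1.34), and 2 fell, SDC4 (-1.51) and CDH15 (-1.05), a share near that of all rows.

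Of 16 measured myoblast fusion genes, 2 rose and 8 fell before birth with a median of -0.90, a share of passing genes near the 61% of all rows, and after centring 8 rose and 6 fell. The adhesion molecule CDH2 fell by 8.18 and the metalloprotease ADAM12 by 5.69, while CAV3, the caveolin of muscle fibres, rose by 2.64 and STAC3, a partner of the calcium channel, by 1.94. In the last fetal step 0 rose and 11 fell (4 and 6 after centring). Across birth 3 rose and 1 fell, again near the share of all rows. MYOF rose by 1.14 there and TANC1 by 0.84.

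Of 15 measured genes in the list of early and fetal contractile genes, 7 rose and 6 fell before birth (median 1.31). The list also held ACTA1, CKM and DES, which are muscle fibre markers here. Its counts and median therefore do not describe early and fetal genes alone. The embryonic light chain MYL4 and the embryonic heavy chain MYH3 fell by 12.58 and 10.08, and the creatine kinase of adult muscle CKM rose by 8.98, with DES next at 4.07. Across birth 1 rose, MYL4 (1.01), and 1 fell, MYBPH (-2.23).

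Of 16 measured nerve and denervation-responsive genes, a set that in rodents includes myogenin targets such as receptor subunits, 5 rose and 6 fell before birth, with a median of -0.02, a share of passing genes near that of all rows. After centring 9 rose and 6 fell (median 1.21). CHRNG, the fetal subunit of the acetylcholine receptor, fell by 9.04 (adjusted p = 1.19e-10), and in the last step alone it fell by 7.72. TRIM63, a ubiquitin ligase of the sarcomere, rose by 9.73 (adjusted p = 3.89e-11) and GADD45A, a stress-response gene, by 3.33. Across birth CHRND fell by 2.14 and CHRNA1 by 1.20, while SLN rose by 1.24 and AGRN by 0.88.

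Of 15 measured growth factors and myokines, 4 rose and 7 fell before birth (median 0.12), but after centring 9 rose and 3 fell (median 1.35). VEGFA, an angiogenic factor, rose by 2.95 and IL15 by 2.18. IL15 stood at 1.37 and 1.05 at 60 days and at 3.09 and 3.69 at 280 days (Piedmontese, Wagyu). These levels are near the low end of the table, where the tenth percentiles of the columns were 3.19 to 4.11. FSTL1 fell by 4.40. MSTN, the inhibitor of muscle growth myostatin, fell by 4.09 and rose by 2.65 across birth, where FST, the gene of its antagonist follistatin, fell by 2.18. IL15 rose by 1.71 and IGF2, a fetal growth factor, fell by 1.86 across birth.

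Of 20 measured cell division genes, 1 rose and 19 fell before birth (median -5.33), which took in every fetal step: 16 fell from 60 to 135 days, 13 from 135 to 195 days and 18 from 195 to 280 days. Across birth 11 rose and 0 fell. From 3 to 30 months 1 rose and 11 fell, where 18.4% of all rows passed as higher and 3.49% as lower. RRM2, a ribonucleotide reductase subunit, fell by 8.68 and rose by 3.02 across birth, where UBE2C, a mitotic ubiquitin-conjugating enzyme, rose by 1.91, and KIF15, a spindle motor, fell by 8.41. The exception was MCM3, a subunit of the replicative helicase, whose probe rose by 5.41 while MCM2 fell by 4.30 and MCM5 fell by 3.83. The mean level of the list was 9.80 to 11.57 at the first 3 fetal ages, 6.40 to 6.53 at 280 days and 6.62 to 7.45 after birth. The part of dividing cells in the course of MYF5 and MYOG was not tested.

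**Figure D4:**
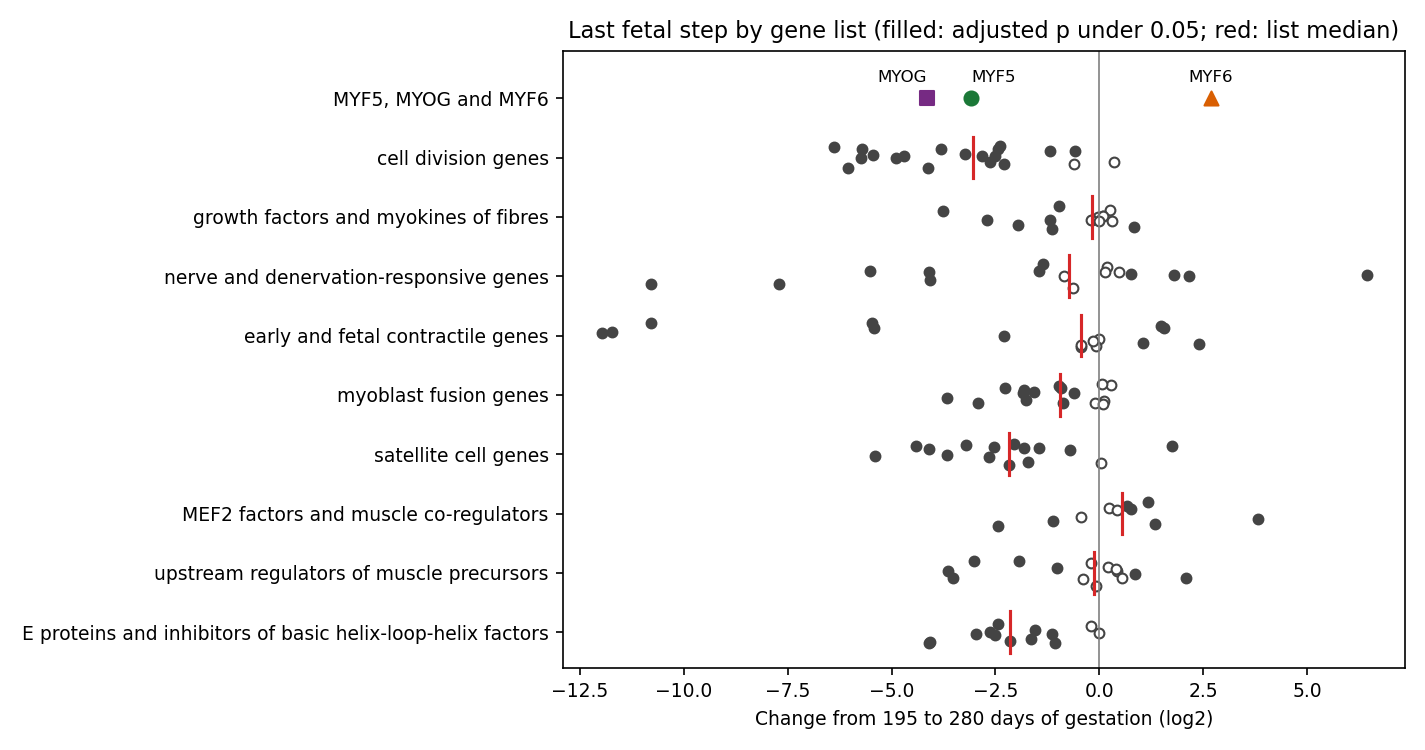
Change from 195 to 280 days of gestation (log2) for each measured gene of 9 lists, 1 circle per gene with filled circles past an adjusted p of 0.05 and red bars at the list medians; the top line shows MYF5, MYOG and MYF6. MYOG at -4.14 and MYF5 at -3.09 lie on the side of the satellite cell list (median -2.17) and the cell division list (median -3.03), and MYF6 at 2.69 on the other.

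Markers of other cell types also moved with gestation. Fibroblast and matrix markers fell in 5 of 5 genes both from 60 to 280 days and in the last fetal step, their mean level being 15.20 to 16.70 at the first 3 fetal ages, 11.83 to 13.02 at 280 days and 12.28 to 13.52 after birth. In the last fetal step 4 of 5 fell after quantile normalisation and 3 of 5 after centring. All 3 measured red cell markers fell in the last step, from a mean level of 11.96 to 13.49 at the first 3 ages to 7.54 to 7.68, and 3 of 4 endothelial markers fell there, from 10.72 to 12.35 down to 10.00 to 10.61. After either scaling 2 of 3 red cell and 3 of 4 endothelial markers fell in that step. Cartilage and tendon markers fell before birth in 3 of 3 genes (2 of 3 after either scaling) and epithelial markers in 4 of 4. Macrophage markers fell in 3 of 3 as deposited but in 1 of 3 after quantile normalisation and after centring. Muscle fibre markers rose in 3 of 4 and the 1 Schwann cell marker rose. Adipocyte markers rose in 3 of 5 from 60 to 280 days, but their course was not even: 4 of 5 rose from 60 to 135 days (median 7.76) and 4 of 5 fell from 135 to 195 days (median -4.98). Their mean level was 3.42, 9.85, 4.97 and 4.69 at the 4 fetal ages in the Piedmontese cross and 3.94, 8.72, 6.32 and 6.01 in the Wagyu cross, so both columns of 135 days stood apart. Of 2 measured satellite cell markers 1 fell from 60 to 280 days and both fell in the last step. Their part in the changes of MYF5, MYOG and MYF6 was not tested.

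Scaling did not change the prenatal calls of the 3 factors. The median change of all rows from 60 to 280 days was -0.34 as deposited, 0.15 after quantile normalisation and 0.89 after centring, and the share of passing rows that were higher was 30.4%, 54.7% and 72.9%. The prenatal changes were -3.80 and -3.32 for MYF5, -4.45 and -2.85 for MYOG and 6.54 and 7.06 for MYF6 after quantile normalisation and centring, all past the threshold. In the same order of scalings, the higher share was 29.7%, 54.5% and 71.3% for 195 to 280 days, 48.2%, 47.6% and 33.4% across birth, 84.1%, 48.4% and 70.1% for 3 to 30 months, and 30.2%, 49.9% and 66.1% for postnatal minus fetal.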

How the data were processed

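The 36 two-colour Agilent arrays carried 72 RNA samples, and their scans were read with Agilent Feature Extraction 8.5.1.1, per the submitters' processing notes. The deposited value table has 21475 rows and 20 columns with 0 missing cells; the authors deposited its values, from -0.64 to 21.75, on a scale read here as log2. The log base, the normalisation of the arrays and the way animals were pooled into a column were not given in the sources used here. Of the rows, 12276 carried 1 gene symbol, 9199 none and 0 several; 12153 Entrez IDs were matched in a RefSeq gene table of ARS-UCD2.0 and 0 symbols changed.

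The limma package 3.58.1 (R 4.3.3) was run on every row (age as a factor, cross, 9 residual degrees of freedom, constant prior), with Benjamini-Hochberg adjustment over all rows and a threshold of 0.05. The cross by stage was fitted on 10 per-age differences. P-values measure the spread between columns. Code was tested on simulated data. The members and lists were chosen with earlier results of these data known. Named genes are the members, the 8 most and 4 least correlated genes, up to 2 passing list genes in each direction for the prenatal and birth changes and 1 for others, and chromosomal neighbours; MCM2, MCM5, TCF3, ID1 and ID3 were added after their values were seen. Alternatives were quantile normalisation, median centring, dropping the lowest 25% of rows, a trended robust prior, averaging rows, stage-wise fits and leaving out each column. The number of arrays limits the precision. No sequences were printed.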

Additional observations from a re-analysis of the deposited data

How the results depend on the processing

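Of 1206 values for 48 results on the 3 factors under the alternatives, 1174 kept their direction and side of the threshold, 11 lost the call, 9 gained it and 12 changed sign. The prenatal change, the step from 195 to 280 days and the rise of MYOG across birth kept theirs in every alternative run. After quantile normalisation the birth change of MYF5 was 1.0 (adjusted p = 0.0464), that of MYF6 -1.34, the postnatal changes of MYF5 and MYOG -0.07 and -0.04, and MYOG minus MYF5 was -0.65 before birth, 0.03 from 3 to 30 months and 0.04 between crosses. After centring, MYOG minus MYF5 before birth was 0.46 (adjusted p = 0.034) and postnatal minus fetal MYOG -0.22. The trended prior gave -3.29 for MYF6 minus MYOG across birth (adjusted p = 0.0516). Fitted on one stage, the fetal steps of MYF6 were 1.52 (adjusted p = 0.0539) and 1.63 (adjusted p = 0.0599), its postnatal change 0.87 and postnatal F 4.74, and the cross difference of MYF5 0.09. In place of 30 months, 20 minus 3 months gave -0.25 for MYF5, chosen after seeing the data.

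Leaving out single columns gave -1.61 to -1.38 for the birth change of MYF6, 0.48 to 2.56 and 0.59 to 2.67 for its first fetal steps (1.46, adjusted p = 0.0799, without the Piedmontese column of 60 days and 1.42, adjusted p = 0.14, without that of 195 days), 0.22 to 1.16 for the step of MYOG from 135 to 195 days, 0.65 to 1.1 for the postnatal change of MYF6 and 0.571 to 4.45 for its postnatal F. For the cross it gave -0.22 to 0.02 for MYF6 minus MYF5 and -0.17 to 0.05 for MYF6 minus MYOG, and -0.14 to 0.03 for the postnatal MYOG minus MYF5.

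Counts of passing rows moved more. The birth change had 6148, 9313 after centring and 2930 without the Wagyu column of 3 months. The postnatal change had 4711, 2827 without the lowest rows, 8003 on postnatal columns alone and 813 to 5877 without single columns. The cross had 60, 120 after quantile normalisation, 117 after centring, 1 on fetal and 400 on postnatal columns, 0 without age and 12 to 120 without single columns. Cross by stage had 4, 11 without the lowest rows, 15 with the trended prior and 0 to 61 without single ages. The first fetal step had 4198, 2121 on fetal columns alone and from 2579 without single columns; the next had 3211, 4888 after centring, 1101 on fetal columns alone and from 1162. The causes were not tested. The cross was fitted with age as a block, so its columns are paired by age; a further block by replicate number could not be fitted, since each cross and age has 1 column. Another row of the same gene was not run, since each factor has 1 row.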
